A study of Mus musculus with 6 samples.

Results

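Leucine, isoleucine and valine are the branched-chain amino acids, and adipose tissue is one of the places where they are broken down. Inside the mitochondrion a transaminase first removes the amino group, and the branched-chain ketoacid dehydrogenase complex then cleaves off the carboxyl group in a step that is held off by a kinase and released by a phosphatase. From there each amino acid has its own enzymes, which resemble those of fatty acid oxidation. Leucine yields acetyl-CoA and ketone bodies, valine yields propionyl-CoA, isoleucine yields both acetyl-CoA and propionyl-CoA, and propionyl-CoA enters the citric acid cycle through a biotin enzyme and a cobalamin enzyme.

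The genes described here are 33 genes of this breakdown, taken by their symbols from the 55039 genes of the deposited count table. All 33 were found once in the table, and all 33 were among the 17296 genes with enough reads to be tested. They were sorted into 8 genes of the steps that the 3 amino acids share, 5 of leucine, 3 of isoleucine, 6 of valine, 6 of propionate and 5 of aldehyde oxidation.

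RNA was sequenced from the epididymal fat pad, a visceral white adipose depot (eWAT), of male C57BL/6 mice that were 6 to 7 weeks old at the start. The cancer-associated cachexia group (CAC, 3 mice) had received Lewis lung carcinoma (LLC) cells, a mouse lung tumor line, under the skin. The control group (CONT, 3 mice) had received PBS, and fat was collected 28 days after injection, with 1 library per mouse. The comparison of CAC with CONT asks how the tumor-bearing state goes together with the transcripts of this tissue.

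The libraries held 15713794 to 25926425 reads counted on genes. CONT replicate 1 stood apart: 30.2% of its reads came from mitochondrially encoded genes, against 3.89% to 5.04% in the others, and its log2 ratio to CONT replicates 2 and 3 had an SD across genes of 0.83 and 0.87, against 0.30 between those 2. CONT replicate 3 carried epididymis transcripts, with 8 marker genes summing to 9988 CPM (gene counts scaled to library size), against at most 204 in the other controls and 16.0 in CAC. All 12 adipocyte markers were detected in every library, Adipoq at 1692 to 3372 CPM. Library sizes were adjusted with TMM factors, and 1 CPM stood for 11.2 to 26.5 reads, so that 31 of the 33 genes had over 100 reads in every library. The exceptions were Bcat1 and Agxt2.

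Transcripts of branched-chain amino acid breakdown were mostly more abundant in CAC. Of the 33 genes, 23 had a higher mean level in CAC and 10 a lower one, and the median log2 fold change was 0.49, beside −0.06 over all genes tested, of which 45.9% were higher. The summed level of the 33 genes was 5597, 4027 and 4757 CPM in the CONT libraries and 7022, 8256 and 8554 CPM in the CAC libraries. In 14 genes the lowest CAC library exceeded the highest control, which was so for 11.8% of all genes tested, and in 1 gene, Aldh3a2, the highest CAC library was under the lowest control, beside 10.7% of all genes. In bulk tissue, fewer cells of a type and less RNA per cell cannot be told apart.

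By edgeR's quasi-likelihood test with Benjamini-Hochberg adjustment, 0 of the 33 genes passed an adjusted p of 0.05, as did 0 of all 17296 genes (0%), whose smallest adjusted p was 0.127. At an unadjusted p under 0.05, 12 of the 33 genes were higher and 0 lower, beside 6.31% of all genes higher and 6.95% lower. The adjusted p-values of those 12 lay between 0.142 and 0.366. DESeq2, the tool the study used, called 8 genes higher and 0 lower, beside 3.18% and 2.37% of all genes with an adjusted p. The 8 were Ppm1k, Bckdha, Hsd17b10, Hibch, Hibadh, Aldh6a1, Mut and Aldh2.

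CONT replicate 1 weighed on these counts. It differed from the mean of the other 2 controls by −1.93 to 1.80 on the log2 scale, was over 2-fold above them in 5 genes and over 2-fold below in 2. Without it, 19 genes were higher at an unadjusted p under 0.05 in edgeR (7.3% of all genes), 21 were higher without overlap (18.1% of all genes) and DESeq2 called 18 (6.01% of all genes). Without CONT replicate 2, and likewise without CAC replicate 3, edgeR's 12 genes became 7, beside 4% and 3.84% of all genes. Those 7 were Aldh6a1, Bckdha, Hibadh, Hibch, Hsd17b10, Mut and Ppm1k in either case. With all libraries and an offset for gene length and GC content, 12 genes were higher at an unadjusted p under 0.05 (6.67% of all genes), with Aldh2 and Bckdhb in place of Ivd and Acadsb. DESeq2 without any 1 library still called these 7 higher, while its call of Aldh2 was lost without CONT replicate 2, CAC replicate 2 or CAC replicate 3.

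**Figure D1:**
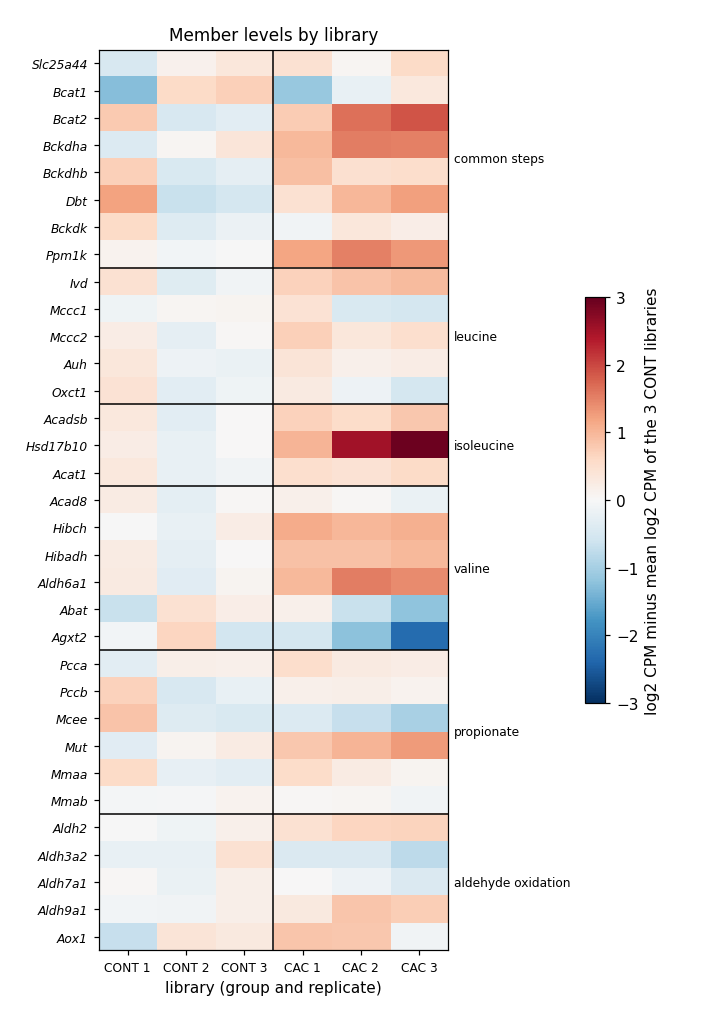
Level of each of the 33 genes (vertical axis, grouped by branch) in the 6 libraries (horizontal axis), as log2 CPM minus the mean log2 CPM of the 3 CONT libraries. Red is above and blue below that mean. Hsd17b10 in CAC replicates 2 and 3 and Bcat2 in the same libraries are among the darkest red cells, and CONT replicate 1 differs from the other controls in several genes, Bcat1, Bcat2, Bckdhb, Dbt, Pccb and Mcee among them.

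The sequences before the start sites of 4 of the higher genes are shown here as examples, 2 of the shared steps, 1 of isoleucine and 1 of valine. Their windows, like those of Mccc2 and Aldh9a1, end before the 5′ end that the count table lists for the gene. They come from RefSeq on GRCm38.p6, are 250 bases long and are written 5′ to 3′ on the gene's strand. They belong to Bcat2 (chr7:45569903-45570152, plus strand), Ppm1k (chr6:57535488-57535737, minus strand), Acadsb (chr7:131410351-131410600, plus strand) and Aldh6a1 (chr12:84451025-84451274, minus strand). Capitals mark matches to CCAAT (the NF-Y motif) or GGGCGG (the SP1 motif) on either strand.
Bcat2: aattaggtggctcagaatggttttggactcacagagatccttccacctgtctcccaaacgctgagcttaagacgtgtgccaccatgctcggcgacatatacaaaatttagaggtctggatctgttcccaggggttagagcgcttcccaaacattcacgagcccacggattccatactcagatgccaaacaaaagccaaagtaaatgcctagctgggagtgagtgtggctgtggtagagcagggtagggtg
Ppm1k: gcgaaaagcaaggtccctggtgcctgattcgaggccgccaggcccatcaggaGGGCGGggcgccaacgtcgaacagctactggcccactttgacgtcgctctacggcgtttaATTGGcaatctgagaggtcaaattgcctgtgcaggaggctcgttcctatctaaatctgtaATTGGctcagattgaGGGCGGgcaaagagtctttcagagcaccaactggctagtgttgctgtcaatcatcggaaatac
Acadsb: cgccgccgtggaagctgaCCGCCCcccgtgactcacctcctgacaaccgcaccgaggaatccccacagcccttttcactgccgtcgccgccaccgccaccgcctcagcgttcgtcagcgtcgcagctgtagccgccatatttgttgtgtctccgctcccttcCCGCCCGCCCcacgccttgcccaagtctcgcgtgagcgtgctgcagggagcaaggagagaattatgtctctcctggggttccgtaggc
Aldh6a1: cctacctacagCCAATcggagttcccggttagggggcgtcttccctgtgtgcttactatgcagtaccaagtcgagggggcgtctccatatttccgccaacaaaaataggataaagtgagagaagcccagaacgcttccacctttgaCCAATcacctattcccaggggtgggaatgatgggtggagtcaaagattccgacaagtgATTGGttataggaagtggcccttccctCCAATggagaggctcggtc

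Ppm1k had 2 CCAAT and 2 GGGCGG matches in its window, Acadsb had 3 GGGCGG matches, of which 2 overlap by 2 bases, Aldh6a1 had 4 CCAAT matches, and Bcat2 had none of either. Of the 33 genes, 26 had a window, 1 per gene nearest the listed 5′ end. CCAAT was in 17 of the 26 windows (65.4%), beside 33.8% of all 32851 windows in the reference and 35.7% of the 12080 tested genes with a window. GGGCGG was in 15 (57.7%), beside 32.7% of all windows and 56.5% of the tested genes. The E-box CACGTG was in 2 windows, those of Mccc2 and Aldh3a2 (7.69%, beside 6.02% of all windows and 8.07% of the tested genes). TCAAGGTCA (the ERR motif) was in 0 of the 26 windows, in 0.387% of all windows and in 0.24% of the tested genes' windows. The motifs were searched on both strands, and a match is a run of letters and not a measured binding site.

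Of the 8 genes of the shared steps, 7 had a higher mean in CAC and the median log2 fold change was 0.60. At an unadjusted p under 0.05, 3 were higher, beside 6.31% of all genes. Without overlap, 2 were higher, beside 11.8% of all genes. The transaminases come first. Bcat2, the mitochondrial transaminase (ENSMUSG00000030826, chr7:45570153-45589711), was at 414, 172 and 194 CPM in the CONT libraries and at 409, 755 and 882 CPM in the CAC libraries. CAC replicate 1 lay at the level of CONT replicate 1, so the groups overlapped. The log2 fold change was 1.39 ± 0.46 (SE, n = 3 per group, edgeR adjusted p = 0.305, DESeq2 adjusted p = 0.0591), and 1.91 without CONT replicate 1. Bcat1, the cytosolic transaminase, was low at 1.34, 4.86 and 5.33 CPM in CONT and 1.48, 2.78 and 4.08 CPM in CAC, or 15 to 118 reads a library. Its log2 fold change was −0.47 ± 0.65 (edgeR adjusted p = 0.783), with −0.86 without CONT replicate 1 and −0.10 without CAC replicate 1. Slc25a44, the mitochondrial carrier that brings in branched-chain amino acids, was at 39.7, 60.9 and 70.6 CPM in CONT and 76.0, 57.7 and 82.7 CPM in CAC. Those groups overlapped, with a log2 fold change of 0.34 ± 0.27 (edgeR adjusted p = 0.600), which was 0.15 without CONT replicate 1 and 0.53 without CONT replicate 3.

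The subunits of the ketoacid dehydrogenase complex did not move alike in every library. Bckdha, the alpha subunit of the component that decarboxylates the ketoacid (ENSMUSG00000060376, chr7:25629946-25658981), was at 28.9, 40.3 and 49.4 CPM in CONT and 75.5, 112 and 110 CPM in CAC. Every CAC library was above every control, and the log2 fold change was 1.33 ± 0.27 (edgeR adjusted p = 0.224, DESeq2 adjusted p = 0.000976). Bckdha overlaps B3gnt8 on the opposite strand, which had 9.15% as many reads. Bckdhb, the beta subunit of the same component, was at 134, 59.4 and 67.0 CPM in CONT and 151, 114 and 116 CPM in CAC, with a log2 fold change of 0.55 ± 0.35 (edgeR adjusted p = 0.519). Dbt, the transacylase core of the complex, was at 280, 76.3 and 85.2 CPM in CONT and 167, 244 and 286 CPM in CAC. In both Bckdhb and Dbt, CONT replicate 1 was far above the other controls and within the range of the CAC libraries. The log2 fold change of Dbt was 0.66 ± 0.55 (edgeR adjusted p = 0.618). Without CONT replicate 1 it was 1.54, and that of Bckdhb was 1.02. Without CONT replicate 2 they were 0.35 and 0.34.

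The regulators of the complex differed in their levels. Ppm1k, the phosphatase that activates it (ENSMUSG00000037826, chr6:57506502-57535468), was at 17.6, 15.3 and 16.0 CPM in CONT and 36.9, 46.1 and 40.3 CPM in CAC. The controls lay close together, every CAC library was over 2-fold above the highest of them, and CONT replicate 1 was no exception. The log2 fold change was 1.34 ± 0.18, the 21st smallest p of all genes in edgeR (adjusted p = 0.142), with a DESeq2 adjusted p of 8.69e-08, and leaving out 1 library gave 1.26 to 1.45. Bckdk, the kinase that inactivates the complex, was at 113, 58.3 and 66.7 CPM in CONT and 70.4, 96.2 and 86.6 CPM in CAC. The groups overlapped and the log2 fold change was 0.09 ± 0.29 (edgeR adjusted p = 0.918). Its sign turned when CONT replicate 2 or 3 or CAC replicate 2 was left out (−0.081, −0.0036 and −0.00087). Without CONT replicate 1 it was 0.45, and every CAC library was above the remaining controls, as in 18.1% of all genes.

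**Figure D2:**
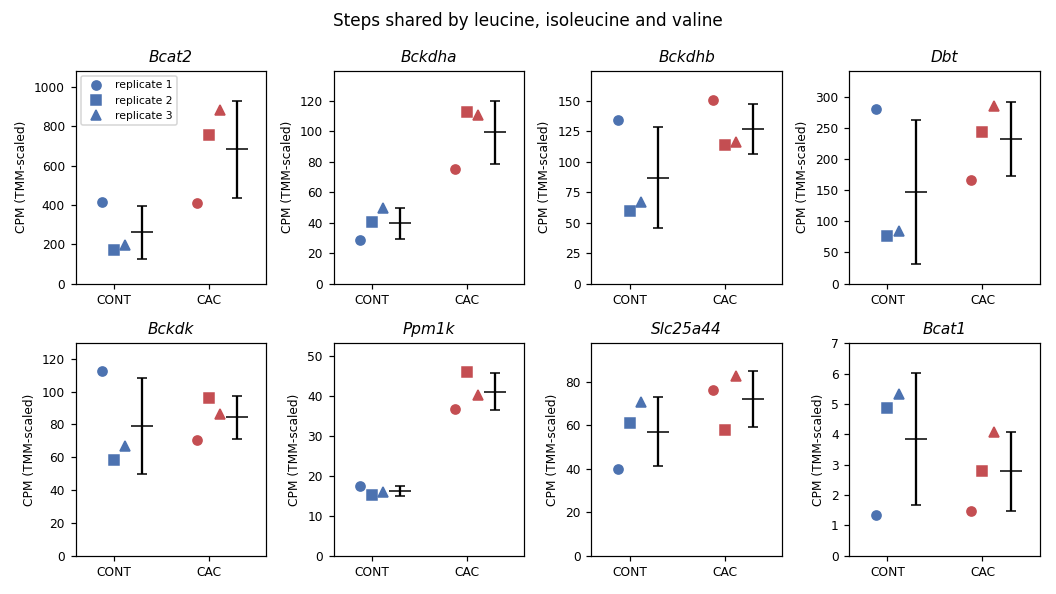
TMM-scaled CPM (vertical axis, from 0) of the 8 genes of the shared steps in each CONT library (blue) and CAC library (red), with the group mean ± SD (n = 3) in black and the replicate given by the marker's shape. Ppm1k and Bckdha are the genes whose groups do not overlap, and CONT replicate 1 lies far above the other controls in Bcat2, Bckdhb, Dbt and Bckdk.

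Ratios between members within a library do not depend on how libraries are scaled, and 8 were computed as log2 ratios of counts. The ratio of phosphatase to kinase, Ppm1k to Bckdk, was −2.68, −1.93 and −2.06 in CONT and −0.93, −1.06 and −1.10 in CAC. Every CAC library was above every control, with a difference of 1.19 (exact two-sided permutation test, p = 0.1, 0.27 after Benjamini-Hochberg adjustment over the 8 ratios, n = 3 per group). The ratio of Bckdha to Bckdk was −1.96, −0.53 and −0.43 in CONT and 0.10, 0.22 and 0.35 in CAC, a difference of 1.20 with no overlap (exact permutation p = 0.1). It was 0.71 without CONT replicate 1. Acadsb to Acad8, the acyl-CoA dehydrogenases of isoleucine and valine, was 2.21, 2.11 and 2.10 in CONT and 2.69, 2.66 and 3.15 in CAC, a difference of 0.69 with no overlap (exact permutation p = 0.1). With 3 libraries a group, 0.1 is the smallest p this test can give.

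The other 5 ratios overlapped between the groups. Bcat2 to Bcat1 differed by 1.79 (exact permutation p = 0.4), Bckdha to Bckdhb by 0.71 (exact permutation p = 0.5), Hibch to Hibadh by 0.15 (exact permutation p = 0.4) and Pcca to Pccb by 0.19 (exact permutation p = 0.9). Without CONT replicate 1 these differences were 2.81, 0.14, 0.021 and −0.31 in the same order. Mccc1 to Mccc2, the 2 subunits of 1 carboxylase, was 0.22, 0.90 and 0.66 in CONT and 0.30, −0.21 and −0.43 in CAC. CAC replicate 1 lay among the controls there, and the difference was −0.71 (exact permutation p = 0.2).

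**Figure D3:**
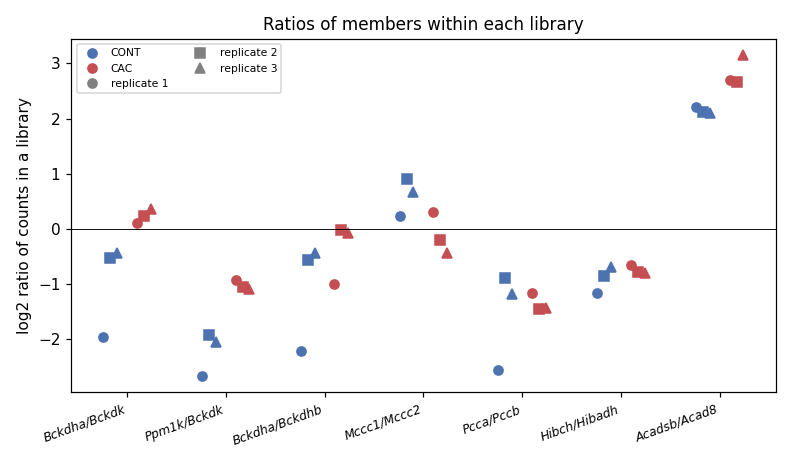
Log2 ratio of the counts of a pair of genes within a library (vertical axis) for 7 of the 8 pairs (horizontal axis), in CONT (blue) and CAC (red), 1 point per library with the marker's shape giving the replicate. Bcat2/Bcat1 is left out because it lies off this scale at 5.14 to 8.23. The pairs Bckdha/Bckdk, Ppm1k/Bckdk and Acadsb/Acad8 have every CAC point above every CONT point.

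Of the 5 genes of leucine, 3 had a higher mean in CAC and the median log2 fold change was 0.24. The same 2 were higher at an unadjusted p under 0.05 and higher without overlap, beside 6.31% and 11.8% of all genes. Ivd, isovaleryl-CoA dehydrogenase and the first enzyme that only leucine uses, was at 369, 209 and 252 CPM in CONT and 433, 484 and 519 CPM in CAC. Its log2 fold change was 0.79 ± 0.28 (edgeR adjusted p = 0.327). Mccc2, the beta subunit of methylcrotonoyl-CoA carboxylase, was at 94.9, 67.5 and 82.2 CPM in CONT and 133, 102 and 114 CPM in CAC, a log2 fold change of 0.52 ± 0.21 (edgeR adjusted p = 0.366). Mccc1, the biotin-carrying alpha subunit, had a log2 fold change of −0.12 ± 0.30. Auh, the hydratase that follows, had 0.24 ± 0.20, and Oxct1, which uses the ketone body acetoacetate, had −0.13 ± 0.31, and all 3 overlapped between the groups. The log2 fold change of Auh was 0.44 without CONT replicate 1. It was 0.023 with an offset for gene length and −0.00066 with an offset for length and GC content. The sign turned for Mccc1 without CAC replicate 2 or 3 (at most 0.059) and for Oxct1 without CONT replicate 1 or CAC replicate 3 (at most 0.14).

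All 3 genes of isoleucine were higher in every CAC library than in any control, beside 11.8% of all genes. The median log2 fold change of the 3 was 0.67. Hsd17b10, the mitochondrial dehydrogenase that oxidizes 2-methyl-3-hydroxybutyryl-CoA and is also a subunit of mitochondrial RNase P (ENSMUSG00000025260, chrX:152001845-152004442), was at 116, 84.2 and 99.2 CPM in CONT. In CAC it was at 201, 564 and 762 CPM. CAC replicate 1 was above the controls but far below the other CAC libraries, and the ratio of the group means was 5.09. The log2 fold change was 2.35 ± 0.50, the largest of the 33 genes (edgeR adjusted p = 0.228, DESeq2 adjusted p = 0.000255), and leaving out 1 library gave 1.95 to 2.77. Acadsb, the short/branched-chain acyl-CoA dehydrogenase, was at 271, 174 and 218 CPM in CONT and 352, 318 and 382 CPM in CAC, a log2 fold change of 0.67 ± 0.24 (edgeR adjusted p = 0.336). With an offset for gene length, or for length and GC content, its groups overlapped. Its locus overlaps Fgfr2 on the opposite strand, which had 9.04% as many reads. Acat1, the mitochondrial thiolase that ends the branch, was at 263, 183 and 198 CPM in CONT and 299, 288 and 315 CPM in CAC, a log2 fold change of 0.49 ± 0.22 (edgeR adjusted p = 0.408).

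Valine had 6 genes, of which 3 consecutive late steps were higher without overlap, beside 11.8% of all genes. The median log2 fold change of the 6 was 0.44. Hibch, which releases 3-hydroxyisobutyrate from CoA (ENSMUSG00000041426, chr1:52844929-52920986), was at 103, 88.5 and 121 CPM in CONT and 224, 207 and 215 CPM in CAC. The lowest CAC library was well above the highest control, and the log2 fold change was 1.05 ± 0.20 (edgeR adjusted p = 0.215, DESeq2 adjusted p = 4.3e-05). Hibadh, which oxidizes 3-hydroxyisobutyrate, was at 231, 161 and 195 CPM in CONT and 356, 358 and 377 CPM in CAC, a log2 fold change of 0.90 ± 0.22 (edgeR adjusted p = 0.242, DESeq2 adjusted p = 0.00353). Aldh6a1, the methylmalonate semialdehyde dehydrogenase that makes propionyl-CoA (ENSMUSG00000021238, chr12:84430717-84451004), was at 520, 339 and 456 CPM in CONT and 852, 1255 and 1154 CPM in CAC. Its log2 fold change was 1.31 ± 0.29 (edgeR adjusted p = 0.228, DESeq2 adjusted p = 0.00055). The CAC libraries of Hibch and Hibadh lay closer together in CPM than the controls. Acad8, isobutyryl-CoA dehydrogenase at the start of the branch, had a log2 fold change of −0.02 ± 0.20. Abat and Agxt2, aminotransferases that act on the side product 3-aminoisobutyrate, had −0.53 ± 0.43 and −1.27 ± 0.62, the latter from 6 to 40 reads a library.

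Of the 6 genes that take propionyl-CoA onward, 4 had a higher mean in CAC and the median log2 fold change was 0.15. At an unadjusted p under 0.05, 1 was higher, beside 6.31% of all genes. Without overlap, 2 were higher, beside 11.8% of all genes. Mut, the cobalamin-dependent methylmalonyl-CoA mutase (ENSMUSG00000023921, chr17:40934685-40961988), was at 78.1, 104 and 116 CPM in CONT and 173, 200 and 237 CPM in CAC. The groups did not overlap, and the log2 fold change was 1.03 ± 0.24 (edgeR adjusted p = 0.228, DESeq2 adjusted p = 0.0016). Pcca, the biotin-carrying alpha subunit of propionyl-CoA carboxylase, was at 70.3, 99.6 and 97.0 CPM in CONT and 128, 106 and 102 CPM in CAC. Its log2 fold change was 0.33 ± 0.21 (edgeR adjusted p = 0.522), and 0.20 without CONT replicate 1. The gap between its groups was small and was lost with upper-quartile factors and with the length and GC offset, and Ggact, which it overlaps on the opposite strand, had 13.9% as many reads. Its partner Pccb overlapped between the groups, with 414, 185 and 222 CPM in CONT and 288, 290 and 276 CPM in CAC and a log2 fold change of 0.06 ± 0.34 (edgeR adjusted p = 0.961), which was 0.50 without CONT replicate 1 and below 0 without CONT replicate 2 (−0.15) or CONT replicate 3. Mcee, the epimerase between the carboxylase and the mutase, had 69.3, 29.3 and 27.9 CPM in CONT and 28.9, 24.0 and 19.6 CPM in CAC, a log2 fold change of −0.80 ± 0.40 (edgeR adjusted p = 0.429). CONT replicate 1 was over 2-fold above every other library in Mcee, and without it the log2 fold change was −0.23. Mmaa and Mmab, which prepare and load the cobalamin cofactor, had log2 fold changes of 0.25 ± 0.30 and −0.00052 ± 0.16.

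The 5 genes of aldehyde oxidation belong to pathway maps of this breakdown but also act on many other aldehydes. Aldh2, the mitochondrial aldehyde dehydrogenase, was at 1066, 979 and 1192 CPM in CONT and 1476, 1681 and 1709 CPM in CAC, without overlap. Its log2 fold change was 0.59 ± 0.26 (edgeR adjusted p = 0.389, DESeq2 adjusted p = 0.0217). Aldh9a1, which oxidizes aminoaldehydes, was at 86.6, 86.2 and 104 CPM in CONT and 113, 163 and 154 CPM in CAC, a log2 fold change of 0.64 ± 0.21 (edgeR adjusted p = 0.305). Aldh3a2, the fatty aldehyde dehydrogenase of the endoplasmic reticulum, was the one gene lower in every CAC library, at 56.4, 56.2 and 91.0 CPM in CONT and 48.6, 49.1 and 38.4 CPM in CAC. The highest of its controls was CONT replicate 3, the library with epididymis transcripts. Its log2 fold change was −0.58 ± 0.25 (edgeR adjusted p = 0.385), and −0.30 without that library. Aldh7a1 had −0.18 ± 0.20, with an overlapping gene, Phax, that had 49.5% as many reads, and Aox1 had 0.49 ± 0.38.

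The 12 members not given library by library under the naming rule, of which Pccb and Mcee are shown above for comparison, had log2 fold changes from −1.27 to 0.49, 4 of them above 0 and 8 below, and edgeR adjusted p-values from 0.426 to 0.999. Levels of different genes compare only per length. On the scale of CPM per kb of gene length, Aldh2 at 210, Pccb at 98.8 and Hsd17b10 at 76.9 were the most abundant of the 33 in CONT. Hsd17b10 at 392, Aldh2 at 316 and Aldh6a1 at 188 were so in CAC. Bcat1 at 0.41 and 0.30 and Agxt2 at 0.38 and 0.16 were the lowest in both groups.

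**Figure D4:**
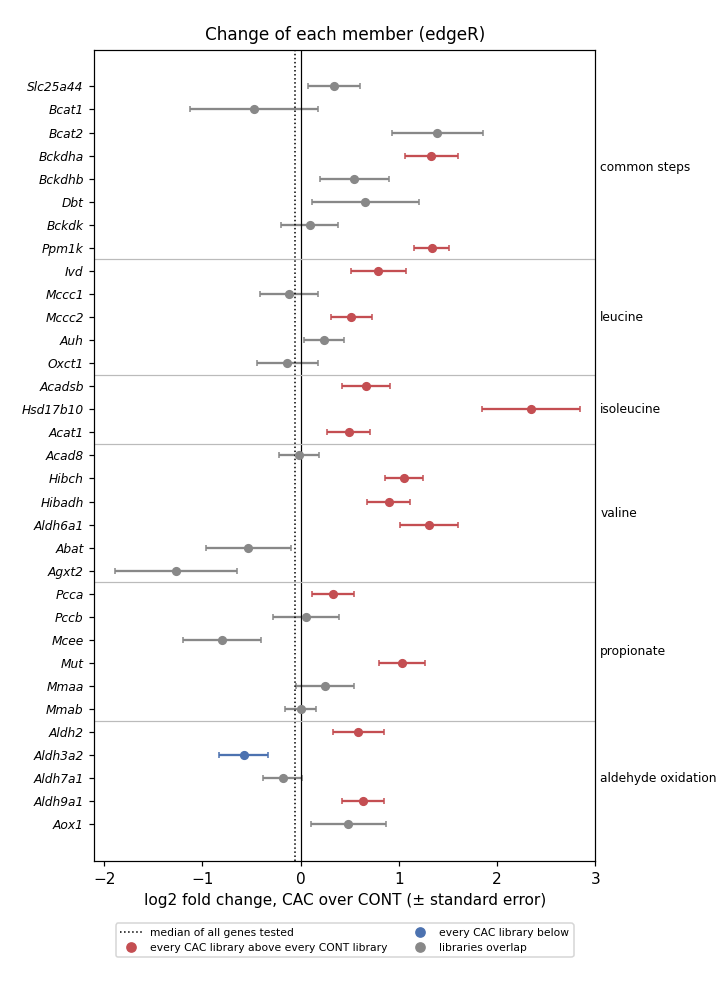
Log2 fold change of CAC over CONT ± SE (horizontal axis, edgeR, n = 3 per group) for each of the 33 genes (vertical axis, grouped by branch). Red points are the 14 genes with every CAC library above the controls, the blue point is Aldh3a2, grey points overlap, and the dotted line is the median of all genes tested at −0.06.

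Other genes of the pathway and its surroundings were taken as lists. Enzymes shared with fatty acid and ketone metabolism had a median log2 fold change of 0.54. Of 21 tested, 7 were higher at an unadjusted p under 0.05 and 0 lower, beside 6.31% and 6.95% of all genes. Among them Ehhadh, a peroxisomal oxidation enzyme, was at 34.6, 44.6 and 66.2 CPM in CONT and 68.3, 267 and 690 CPM in CAC. Every CAC library was above the controls, and the log2 fold change was 2.82 ± 0.80 (edgeR adjusted p = 0.275, DESeq2 adjusted p = 0.00469). Hadhb of the mitochondrial trifunctional protein had a log2 fold change of 0.74 ± 0.23 (edgeR adjusted p = 0.289, DESeq2 adjusted p = 0.0474). The other 2-oxoacid dehydrogenases, those of pyruvate and 2-oxoglutarate, had a median log2 fold change of 0.57. Dlat, Pdhx and Dlst, 3 of the 6, were higher at an unadjusted p under 0.05, beside 6.31% of all genes.

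Of 7 tested genes of branched-chain amino acid transport across the cell membrane, 3 had a log2 fold change above 0 and 4 below. The median was −0.04. At an unadjusted p under 0.05, 3 were higher and 0 lower, beside 6.31% and 6.95% of all genes. Slc43a1 was at 23.7, 31.8 and 34.8 CPM in CONT and 78.8, 184 and 212 CPM in CAC, a log2 fold change of 2.39 ± 0.40 (edgeR adjusted p = 0.215, DESeq2 adjusted p = 3.47e-06). Slc7a8 had 2.44 ± 0.76 with overlapping groups (edgeR adjusted p = 0.289, DESeq2 adjusted p = 0.0175). Slc3a2, the heavy chain that Slc7a8 pairs with, had 1.38 ± 0.43 (edgeR adjusted p = 0.290, DESeq2 adjusted p = 0.0386). Of 6 regulators linked to these genes, Klf15, a transcription factor known to induce branched-chain amino acid catabolism, was at 71.1, 68.5 and 77.6 CPM in CONT and 152, 187 and 163 CPM in CAC. The groups lay far apart and the log2 fold change was 1.21 ± 0.18 (edgeR adjusted p = 0.177, DESeq2 adjusted p = 1.38e-08). The other 5 overlapped, with log2 fold changes of 1.90 ± 0.81 for Ppara, 0.60 ± 0.62 for Ppargc1a, 0.38 ± 0.31 for Mlxipl, 0.09 ± 0.24 for Pparg and −0.02 ± 0.25 for Esrra, and the median of the 6 was 0.49. Of 10 genes of cobalamin and biotin handling, with a median of 0.24, 1 was higher at an unadjusted p under 0.05, beside 6.31% of all genes. It was Tcn2, the plasma carrier of cobalamin, at 65.9, 123 and 152 CPM in CONT and 217, 338 and 481 CPM in CAC (edgeR adjusted p = 0.264, DESeq2 adjusted p = 0.00711).

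Several other gene lists moved with the groups, and their part in the results above was not tested. At an unadjusted p under 0.05, 6.31% of all genes were higher and 6.95% lower. Of 12 nuclear genes of mitochondrial content, 4 were higher at an unadjusted p under 0.05 (Timm23, Hspd1, Tomm20 and Immt) around a median of 0.17, and their summed level was 1537 to 1956 CPM in CONT and 1971 to 2156 CPM in CAC. The 12 adipocyte markers summed to 25995 to 57403 CPM in CONT and 39278 to 55164 CPM in CAC. Of them, 5 were higher and 7 lower, with a median of −0.19. Pnpla2 was the 1 gene at an unadjusted p under 0.05 (1.36 ± 0.32). CAC replicate 1 was near the controls in some of the markers. Fabp4 was at 13836 CPM there, against 3233 and 3750 CPM in the other CAC libraries and 6182 to 22460 CPM in CONT. Of 8 neutrophil markers, 6 were higher at that threshold, and their sum was 5.17 to 68.4 CPM in CONT and 176 to 1287 CPM in CAC. Of 8 fibroblast and progenitor markers, 5 were lower (sum 2201 to 2805 CPM in CONT and 1391 to 2143 CPM in CAC), and of 8 B and plasma cell markers, 3 were lower (55.2 to 95.6 and 9.59 to 21.7 CPM). The brown adipocyte list had a median of 1.19, with 5 of 6 tested genes higher. Elovl3 was higher and Cox7a1 lower at an unadjusted p under 0.05. In Elovl3 the groups overlapped, at 0.18, 0.44 and 0.090 CPM in CONT and 0.16, 2.38 and 40.6 CPM in CAC. The sums of the list also overlapped, at no more than 42.5 CPM in CONT and 151 CPM in CAC. The list's defining marker Ucp1 had at most 0.54 CPM in any library. Macrophage, T cell, endothelium, mesothelium and skeletal muscle lists had medians of −0.44, −0.47, 0.00, −0.50 and 0.55, with at most 2 genes each at an unadjusted p under 0.05.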

How the data were processed

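The authors aligned the reads with HISAT2 2.0.5 and counted them per gene with featureCounts 1.5.0-p3, per the submitters' processing notes, on GRCm38 coordinates. The table of counts that the authors deposited holds whole numbers and is not normalized. The deposited FPKM values, computed by the authors, divide reads by gene length and a library total, which was 0.879 to 1.44 times the sum of the counts. The strand setting of the counting is not given in the sources used here. Groups came from the sample labels.

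The test was that of edgeR 4.0.16 in R 4.3.3 (TMM, filter on low counts by group, robust quasi-likelihood test, Benjamini-Hochberg adjustment over 17296 genes, group as the only term). The study's methods name DESeq2, and DESeq2 1.42.0 was run as an alternative. With limma 3.58.1, log2 FPKM values were tested after adding 1 or 0.1, for genes at 0.5 or more in 3 libraries. There fold changes of low genes are understated. A threshold of 0.05 was used throughout. The SE is the log2 fold change divided by the square root of the F statistic. Ratios had 0.5 added to each count. The procedures were also run on simulated data, and the outcome is not reported here.

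The 33 genes and all lists were chosen with earlier results of these data known. Members with an unadjusted p under 0.05, members whose groups did not overlap and the 8 genes of the shared steps were given library by library. Of each other list, up to 4 genes with the smallest unadjusted p under 0.05 could be named. Adipoq, Lep, Fabp4, Ucp1 and all the regulators but Klf15 were named outside this rule, after their values were seen. Some genes that the rule would name are not reported here. Alternatives were other scaling factors, count filters, length and GC offsets, a replicate block, removal of mitochondrially encoded genes, FPKM values and each library left out. Promoter windows came from RefSeq on GRCm38.p6, and 7 members without one were not searched.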

Additional observations from a re-analysis of the deposited data

How the results depend on the processing

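The count of 0 members at an adjusted p under 0.05 held under all edgeR and limma alternatives, while DESeq2 called 8 and, with 1 library left out, 7 to 18 (18 without CONT replicate 1, and 11 without CAC replicate 1, of which 1, Mccc1, was lower), beside 1.55% to 6.01% of all genes higher and 1.65% to 5.32% lower in these fits. The 12 members higher at an unadjusted p under 0.05 ranged in edgeR from 7 to 19 with 1 library left out, while the share of all genes went from 3.55% to 7.3%, and from 10 to 14 under the other alternatives, beside 4.05% to 7.93% of all genes. DESeq2 with 1 library left out gave 12 to 20, beside 3.23% to 6.89% of all genes in the DESeq2 fit, low ones included. The count lower at that threshold went in edgeR from 0 to 1, Aldh3a2 each time, beside 7.22% to 8.28% of all genes. This was so with upper-quartile factors, a length offset, a length and GC offset, and without CONT replicate 1 (range 0 to 1 over libraries left out). The length and GC offset was added after seeing the data, as was leaving out libraries in DESeq2. In DESeq2 the count lower was 0 to 2, with Mcee, Abat or Mccc1 in some cases, beside 4.29% to 6.22% of all genes in the fit. Non-overlapping members ranged from 14 to 21 higher and from 1 to 5 lower with 1 library left out, beside 13.3% to 18.1% and 13.1% to 19.6% of all genes. The 5 were without CAC replicate 1, a share near that of all genes. With upper-quartile factors 13 were higher, beside 10.8% of all genes. Under the other alternatives 14 or 15 were higher, beside 7.25% to 13.8% of all genes. Lower ones numbered 2 with the length offset (Aldh3a2 and Mcee) and 3 with length and GC (also Agxt2), beside 12% and 11.2% of all genes. The median log2 fold change was 0.37 to 0.59 in edgeR and limma, 0.51 in DESeq2 and 0.38 to 0.63 in DESeq2 with 1 library left out. DESeq2 brought 8 named members past the threshold. The sign of Bckdk turned without CONT replicate 2 (−0.081), CONT replicate 3 (−0.0036) or CAC replicate 2 (−0.00087), its highest value being 0.45 without CONT replicate 1. The signs of Mccc1, Oxct1, Acad8, Pccb and Mmab also turned when a library was left out, and that of Auh turned with the length and GC offset (−0.00066). That of the Pcca to Pccb ratio turned without CONT replicate 1 (−0.31) and reached 0.52 without CONT replicate 2. The causes of these shifts were not tested. Same-numbered libraries' deviations from their group means correlated across genes at 0.27, −0.23 and −0.26. These values cannot show whether replicate numbers pair the libraries, as the deviations within a group depend on each other. With the replicate block, 10 members were higher at an unadjusted p under 0.05, beside 5.23% of all genes, and 0 at an adjusted one. Depth limits Bcat1 and Agxt2 most, the members with under 100 reads in some library.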
